A study of Mus musculus with 43 samples.

Results

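Txnip, Ucp2 and Ppargc1a are 3 genes through which cells adjust to nutrient supply, and their transcript levels were described here in 4 nuclei of the mouse hypothalamus. They were chosen by name, as the rows of the expression table whose Ensembl identifier belongs to these symbols, and all 3 were present among 10127 genes, 9891 of which had a symbol. All mice were males of the strain C57/BL6 per the labels (C57BL/6J in the study's methods) that carried a Snord116 deletion on the paternal allele (the line B6(Cg)-Snord116tm1.1Uta/J), aged 17 to 19 weeks per the study's methods. Fed mice had free access to food, and fasted mice had no food for 24 hours before the brain was taken. Both groups carried the deletion, so that the comparison is of nutritional state within the deletion, and wild-type mice are not analysed here. The arcuate nucleus (ARC), dorsomedial hypothalamus (DMH), paraventricular nucleus (PVN) and ventromedial hypothalamus (VMH) were cut from stained cryosections by laser capture, in 3 batches, and their RNA was amplified and sequenced.

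The 41 libraries came from 12 mice, 6 fasted and 6 fed, with 2 fasted and 2 fed mice in each batch. There were 4 fasted and 5 fed libraries of the ARC, 5 and 6 of the DMH, 5 and 5 of the PVN, and 6 and 5 of the VMH. Mice are named by the state and number in the labels (Fast-86, Fed-111) and libraries by nucleus and number, so that PVN-86 is the PVN of Fast-86. Values are CPM, reads of a gene scaled to the same total in every library. The depth, read from the steps between low values, was 1.94 to 8.23 M reads per library (M, mega), with a median of 4.10 M. Genes that mark the captured nuclei followed the labels: the mean level of Npy was 473 CPM in the ARC and at most 5.55 CPM in the others, Pmch was at 277 CPM in the DMH, Avp at 800.4 CPM in the PVN and Fezf1 at 219 CPM in the VMH. A captured nucleus holds many cell types, and in such tissue fewer cells of a type and less RNA per cell cannot be told apart.

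Txnip encodes thioredoxin-interacting protein, an alpha-arrestin that binds thioredoxin and limits glucose uptake, and its transcription is known to respond to glucose and to hormones of the fed and fasted states. Ucp2 encodes an uncoupling protein, a carrier of the inner mitochondrial membrane that in hypothalamic neurons has been tied to fatty acid use and to firing during food deprivation, and it is also expressed in microglia. Ppargc1a encodes PGC-1alpha, a transcriptional coactivator of mitochondrial biogenesis and oxidative metabolism that is induced by fasting in liver.

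On GRCm38, Txnip (ENSMUSG00000038393) lies at chr3:96557957-96561883 on the plus strand, Ucp2 (ENSMUSG00000033685) at chr7:100493337-100502020 on the plus strand and Ppargc1a (ENSMUSG00000029167) at chr5:51454250-51567726 on the minus strand. All 3 are protein coding. An antisense gene, Gm15441, covers 606 of the 3123 exon bases of Txnip (19.4%), and Dnajb13 on the opposite strand covers 4.36% of the 6989 exon bases of Ucp2. The library kit does not mark strand, so reads from these partners and from Txnip or Ucp2 cannot be told apart in the shared stretches, and the partners are not analysed here.

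The 250 bases before the start of each gene (RefSeq, GRCm38.p6) are shown because these are the promoters of the genes whose levels are compared. They lie at chr3:96557707-96557956 (plus strand) for Txnip, chr7:100493108-100493357 (plus strand) for Ucp2 and chr5:51567726-51567975 (minus strand) for Ppargc1a, counted from the RefSeq start. Capitals mark matches, on either strand, to 7 patterns. These were the E-box CACGTG, a carbohydrate response element made of a CACGAG repeated after any 5 bases, the forkhead site GTAAACA, the cAMP response element core TGACGT, the CCAAT box, the TATA box as TATATAA, and the GC box as GGGCGG.
Txnip: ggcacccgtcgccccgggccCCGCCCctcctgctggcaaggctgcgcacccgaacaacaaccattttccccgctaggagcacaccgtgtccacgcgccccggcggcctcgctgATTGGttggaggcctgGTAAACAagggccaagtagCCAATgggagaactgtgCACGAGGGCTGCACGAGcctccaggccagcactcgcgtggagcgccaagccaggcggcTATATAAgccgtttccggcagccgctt
Ucp2: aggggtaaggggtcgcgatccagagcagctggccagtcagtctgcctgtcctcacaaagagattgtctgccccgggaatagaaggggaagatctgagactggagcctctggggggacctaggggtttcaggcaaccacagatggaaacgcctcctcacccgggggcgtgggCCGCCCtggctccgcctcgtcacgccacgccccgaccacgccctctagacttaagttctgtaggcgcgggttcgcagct
Ppargc1a: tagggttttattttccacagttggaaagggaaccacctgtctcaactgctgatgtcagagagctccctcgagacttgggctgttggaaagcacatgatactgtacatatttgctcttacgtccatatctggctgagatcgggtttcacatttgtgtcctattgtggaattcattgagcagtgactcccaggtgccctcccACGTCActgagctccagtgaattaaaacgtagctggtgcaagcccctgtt

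The Txnip promoter held the carbohydrate response element 85 bases before the start, a forkhead site 121 bases before it, a CCAAT box at 102 bases and another, on the minus strand, at 137 bases, a TATA box at 27 bases, and a GC box on the minus strand at 230 bases. The Ucp2 promoter matched only GGGCGG, on the minus strand 79 bases before the start, and the Ppargc1a promoter matched only TGACGT, on the minus strand 50 bases before the start. No match to CACGTG was found in any of the 3. The letters of the carbohydrate response element were settled after the Txnip promoter had been read, so its share of promoters, 1 of 32851 and that 1 being Txnip, describes the choice of letters. Among all 32851 promoters of the same length, 6.02% held CACGTG, 3.17% GTAAACA, 6.47% TGACGT, 33.8% CCAAT, 3.04% TATATAA and 32.7% GGGCGG. A match is a description of the letters and not a measured site.

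Per kilobase of exon, Ucp2 and Ppargc1a were well expressed and Txnip was at a middling level. Over the 41 libraries the mean level was 18.8 CPM per kilobase for Ucp2, above 86.3% of 9891 genes, 15.9 CPM per kilobase for Ppargc1a, above 83.0%, and 4.15 CPM per kilobase for Txnip, above 48.0%. The table used here has a wide gap in its Ensembl numbers below 28747, so these shares, and the measured members of each list below, are of the genes analysed here, and a list member not measured says nothing of its expression. The reads behind the values ranged from 207 to 2227 per library for Ucp2 and from 53 to 938 for Ppargc1a, but from 3 to 161 for Txnip, so single values of Txnip are the least precise.

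The first comparison asked where in the hypothalamus each gene was expressed, with fasted and fed libraries together. Txnip was lowest in the VMH. Its level was 18.0 ± 9.95 CPM (SD, n = 9) in the ARC, 15.5 ± 6.80 (n = 10) in the PVN, 11.4 ± 6.92 (n = 11) in the DMH and 8.03 ± 6.95 (n = 11) in the VMH. In limma, with state and batch in the model, the ARC exceeded the VMH by 1.55 ± 0.33 on the log2 scale (SE, adjusted p = 0.000263), the PVN exceeded it by 1.42 ± 0.32 (adjusted p = 0.00052) and the DMH by 0.88 ± 0.31 (adjusted p = 0.0428). The last of these was lost without Fast-311 (adjusted p = 0.124) or Fed-125 (adjusted p = 0.140), and ranged from 0.0163 to 0.140 over the mice left out. The neighbours ARC and PVN (difference 0.13 ± 0.34, adjusted p = 0.875) and PVN and DMH (0.54 ± 0.32 lower in the DMH, adjusted p = 0.300) did not pass the threshold, nor did ARC and DMH (0.67 ± 0.33, adjusted p = 0.195, and 0.44 without Fed-308).

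With fasted and fed libraries together, Ucp2 was higher in the ARC and PVN than in the DMH and VMH. The level was 154 ± 67.5 CPM in the ARC, 154 ± 104 in the PVN, 113 ± 45.2 in the VMH and 112 ± 37.5 in the DMH. The ARC exceeded the DMH by 0.49 ± 0.12 (limma, adjusted p = 0.0036) and the VMH by 0.53 ± 0.12 (adjusted p = 0.000711). The PVN exceeded the DMH by 0.38 and the VMH by 0.42 (each ± 0.12, adjusted p = 0.0245 and 0.00606). In fed mice alone the mean was 147 CPM in the ARC, 113 in the PVN, 106 in the DMH and 84.8 in the VMH. In fasted mice it was 163, 195, 118 and 137 CPM in that order, with PVN-86 at 421 CPM. As DMH minus PVN, the difference was -0.30 without Fast-86 (limma, adjusted p = 0.0992). The ARC and PVN differed by 0.11 ± 0.13 (95% interval -0.14 to 0.36), and the DMH and VMH by 0.04 ± 0.12 (-0.19 to 0.27), with neither pair past the threshold. The ARC and PVN difference was 0.016 without Fast-305, 0.17 without Fast-86 and 0.038 with voom. All 4 of the Ucp2 calls were lost when batch was left out of the model, with adjusted p from 0.132 to 0.423.

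Ppargc1a had another order, with the PVN and DMH above the VMH and ARC. Its level was 137 ± 31.8 CPM in the PVN, 121 ± 23.7 in the DMH, 82.5 ± 26.1 in the VMH and 76.0 ± 27.8 in the ARC. The PVN exceeded the ARC by 0.90 ± 0.19 on the log2 scale (limma, adjusted p = 0.000301) and the VMH by 0.76 ± 0.18 (adjusted p = 0.000657). The DMH exceeded the ARC by 0.74 ± 0.18 (adjusted p = 0.00305) and the VMH by 0.60 ± 0.17 (adjusted p = 0.0083). The PVN and DMH differed by 0.16 ± 0.18 and the VMH and ARC by 0.13 ± 0.18, neither past the threshold (adjusted p = 0.633 and 0.659). As DMH minus PVN the first was -0.062 without Fed-111, and as ARC minus VMH the second was -0.017 without Fast-311 and -0.37 without Fast-86 (adjusted p = 0.109). The 4 calls held under every alternative run and without each mouse in turn.

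Differences between nuclei were common in this tissue, and the counts for the 3 genes are to be read against that. Between the ARC and DMH 2 of the 3 were called at an adjusted p under 0.1, as were 18% of the 10121 genes tested. Between the ARC and PVN 1 of the 3 was called (16.7% of genes), between the ARC and VMH 2 (30.3%), between the DMH and PVN 1 (18%), between the DMH and VMH 2 (23.4%) and between the PVN and VMH all 3 (31.3%).

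Cell type markers, summed over each list and given here with no test, were also at unequal levels in the nuclei. For 6 measured of 8 oligodendrocyte markers the sum was 1123 to 1759 CPM in the VMH, where Txnip was lowest, 246 to 776 in the ARC, 352 to 626 in the PVN and 455 to 1578 in the DMH. For 7 measured of 10 endothelial markers it was 229 to 392 CPM in the PVN, where Ucp2 was high, and at most 208 in the other nuclei. For 8 measured of 12 microglial markers the median was 171 CPM in the ARC, where Ucp2 was also high, and 114 to 136 in the other nuclei, with overlapping ranges. Within that list Ctss was at 59.1 CPM in the ARC and 32.7 in the DMH, whereas Cx3cr1 was at 25.2 and 24.4. For 3 measured of 8 astrocyte markers the sum was 92.6 to 140 CPM in the ARC, where Ppargc1a was lowest, 144 to 253 in the DMH, 127.1 to 261 in the PVN and 108 to 205 in the VMH. Tanycyte and ependymal markers, 3 measured of 8, summed to 121 to 236 CPM in the DMH and 45.1 to 174 in the ARC, but to at most 21.9 in the PVN and VMH. That order was set by Gpr50, at 169 CPM in the DMH, while Foxj1 was at 1.99 CPM in the DMH against 2.93 in the ARC, and Col23a1 at 7.75 against 34.2. None of these markers was at 0 throughout a group, and the part of these cell types in the level differences was not tested.

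**Figure D1:**
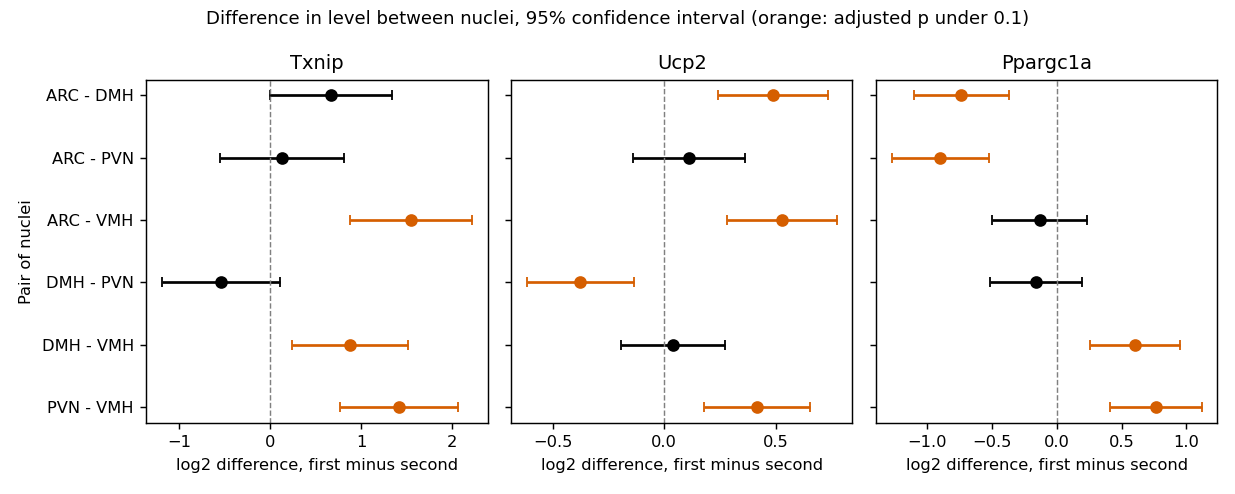
Difference in log2(CPM + 0.5) between each pair of nuclei for the 3 genes, from limma, with the first nucleus minus the second on the x axis. Points are estimates, bars are 95% confidence intervals, and orange marks an adjusted p under 0.1. With fasted and fed libraries together, Txnip was lowest in the VMH, Ucp2 was higher in the ARC and PVN, and Ppargc1a was higher in the PVN and DMH.

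The second comparison asked whether a 24-hour fast changed the level of each gene in each nucleus. Txnip was higher on average in fasted mice in every nucleus, with the widest gaps in the VMH and DMH. In the VMH, fasted libraries ranged from 3.61 to 20.5 CPM with a median of 11.6 (n = 6, mean 11.9 ± 7.12). The fed VMH values were 0.518 CPM in Fed-125, 1.81 in Fed-308, 2.91 in Fed-111, 4.0 in Fed-127 and 7.44 in Fed-313, a mean of 3.34 ± 2.63 (SD, n = 5). The fasted mice Fast-85, Fast-86, Fast-100 and Fast-101 all exceeded every fed mouse, whereas Fast-305 and Fast-311 of batch 3 lay within the fed range. The lowest fed value rested on 3 reads. The difference was 1.67 ± 0.55 on the log2 scale (SE, 3.17-fold), with an adjusted p of 0.536 in limma.

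In the DMH, Txnip was at 25.3 CPM in Fast-86, 15.6 in Fast-100, 16.8 in Fast-101, 8.79 in Fast-305 and 15.5 in Fast-311, a mean of 16.4 ± 5.89 (SD, n = 5). The fed libraries ranged from 3.16 to 16.2 CPM with a median of 5.75 (n = 6, mean 7.18 ± 4.63). Apart from the highest fed library, DMH-92, every fed value, up to 7.16 CPM, was below every fasted one. The difference was 1.37 ± 0.37 on the log2 scale (2.59-fold) with an adjusted p of 0.569, the 20th smallest unadjusted p of 9751 genes. Over the libraries left out in turn the difference was 1.26 to 1.5, and the adjusted p stayed at 0.362 or above.

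In the PVN and ARC the Txnip values of fasted and fed mice were mixed. Fasted PVN values were 28.4 CPM in Fast-86, 25.5 in Fast-100, 13.5 in Fast-101, 12.6 in Fast-305 and 10.7 in Fast-311. Fed PVN values were 5.71 CPM in Fed-111, 17.8 in Fed-125, 12.1 in Fed-127, 13.8 in Fed-308 and 15.5 in Fed-313. The groups overlapped, and the difference was 0.45 ± 0.37 (limma, adjusted p = 0.745). It fell to 0.0038 without either mouse of batch 1, PVN-86 or PVN-111, since each is the only library of its state in that batch.

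In the ARC, Txnip was at 32.5 CPM in Fast-86, 20.6 in Fast-100, 15.8 in Fast-305 and 8.45 in Fast-311. Fed ARC values were 21.5 CPM in Fed-111, 13.0 in Fed-125, 5.47 in Fed-127, 33.4 in Fed-308 and 11.1 in Fed-313. The highest value of all was in a fed mouse and the groups overlapped throughout. The difference was 0.18 ± 0.43 (limma, adjusted p = 0.933), and it was below 0 without ARC-100 (-0.28) or ARC-127 (-0.05).

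Ucp2 was higher on average in fasted mice in all 4 nuclei, by a wider margin in the PVN and VMH. In the PVN it was at 421 CPM in Fast-86, 180 in Fast-100, 154 in Fast-101, 79.0 in Fast-305 and 141 in Fast-311. Fed PVN values were 209 CPM in Fed-111, 93.3 in Fed-125, 102 in Fed-127, 85.2 in Fed-308 and 77.6 in Fed-313. Batch 1, with Fast-86 and Fed-111, was highest in both states, and within batches fasted exceeded fed by 1.01, 0.77 and 0.37 on the log2 scale in batches 1, 2 and 3. PVN-86 was also highest of the PVN libraries in the summed markers of the captured nuclei, at 1625 CPM against 433 to 1296 in the others. It was highest in 3 cell type marker sums as well. Endothelial markers were at 392 CPM against 229 to 301, astrocyte markers at 261 against 127.1 to 183 and microglial markers at 213 against 107 to 183. Without PVN-86 the Ucp2 difference of the PVN was 0.57, and the part of these cells in it was not tested.

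The PVN difference in Ucp2 was 0.66 ± 0.16 (1.58-fold), with a limma adjusted p of 0.108, just outside the threshold of 0.1. It passed with a pseudocount of 2 (0.0968), with a fit over all libraries (0.0914), with voom on reads (0.0259) and without PVN-305 (0.0164), and was at 0.850 without batch in the model. Over the other libraries left out in turn the adjusted p ranged from 0.157 to 0.355.

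In the VMH, Ucp2 ranged from 86.1 to 219 CPM in fasted mice with a median of 118 (n = 6, mean 137 ± 47.8). Fed values were 118 CPM in Fed-111, 83.2 in Fed-125, 65.5 in Fed-127, 70.1 in Fed-308 and 87.4 in Fed-313, a mean of 84.8 ± 20.5 (SD, n = 5). Fed-111 of batch 1 lay among the fasted values, and of the other fed mice only Fed-313 exceeded a fasted mouse, Fast-305. The difference was 0.55 ± 0.15 (1.46-fold) with a limma adjusted p of 0.410. In the same VMH libraries 3 measured of 8 astrocyte markers summed to 165 ± 27.1 CPM in fasted and 130 ± 17.7 in fed mice. Their ranges overlapped (129 to 205 and 108 to 151 CPM), and their part in the VMH changes of Ucp2 and Txnip was not tested.

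In the ARC, Ucp2 was 163 ± 72.2 CPM in fasted mice (119.5 to 270.0, SD, n = 4) and 147 ± 71.2 in fed mice (102 to 270.5, n = 5). In the DMH it was 118 ± 45.5 CPM in fasted mice (80.6 to 195, n = 5) and 106 ± 32.9 in fed mice (60.6 to 162, n = 6). The states overlapped in both nuclei, with both ends of the DMH range higher in fasted mice. The differences were 0.13 ± 0.14 and 0.23 ± 0.17 (limma, adjusted p = 0.835 and 0.867). Without 1 library at a time the ARC value was 0.059 (without ARC-127) to 0.19, and the DMH value was 0.13 (without DMH-308) to 0.36 (without DMH-101).

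The estimates for Ppargc1a were above 0 in the ARC, PVN and VMH and below 0 in the DMH, and none was called. In the ARC Ppargc1a was at 114 CPM in Fast-86, 76.2 in Fast-100, 115 in Fast-305 and 62.4 in Fast-311. Fed ARC values were 22.4 CPM in Fed-111, 75.2 in Fed-125, 66.8 in Fed-127, 70.9 in Fed-308 and 80.6 in Fed-313. The fed mean of 63.2 ± 23.4 was drawn down by Fed-111, against 92.01 ± 26.8 in fasted mice. The difference was 0.65 ± 0.28 (limma, adjusted p = 0.574), and 0.14 without the batch 1 pair's ARC-86 or ARC-111. In the same ARC libraries the endothelial markers summed to 66.9 to 86.6 CPM in fasted and 92.8 to 109 CPM in fed mice, and 3 measured of 8 neuronal markers to 4289 to 4845 and 3640 to 4260 CPM. Neither sum overlapped between the states, and of single genes 2.13% were apart in the ARC. Of 7 measured endothelial markers 1 had an ARC estimate above 0, and 1 was lower at an unadjusted p under 0.05 (limma), beside 8.10% of all genes. The neuronal sum was mostly Snhg11, a noncoding RNA, at 4005 CPM in fasted and 3417 in fed mice, while Syt1 was at 398 and 350.1 and Tubb3, in the other direction, at 82.1 and 132. No marker of the 2 lists was at 0 throughout a group, and their part in the ARC changes was not tested.

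In the DMH the sign was the opposite, with Ppargc1a at 109 ± 29.5 CPM in fasted mice (80.0 to 144, SD, n = 5) and 131 ± 13.0 in fed mice (114 to 152, n = 6). Fast-86, Fast-100 and Fast-101 were below every fed mouse, and Fast-305 and Fast-311 of batch 3 were within the fed range. The difference was -0.33 ± 0.15 (limma, adjusted p = 0.752), and -0.21 without DMH-86. In the PVN it was 146 ± 20.2 CPM in fasted mice (124 to 176, n = 5) and 128 ± 40.8 in fed mice (99.9 to 193, n = 5), and in the VMH 87.2 ± 32.5 (28.2 to 119, n = 6) and 76.9 ± 17.6 (51.2 to 90.0, n = 5). The groups overlapped in both, with differences of 0.23 ± 0.16 and 0.22 ± 0.20 (adjusted p = 0.688 and 0.905). The PVN value was 0.13 without PVN-311 and 0.39 without PVN-86 or PVN-111, and the VMH value was 0.10 without VMH-85, 0.38 without VMH-86 and 0.083 without batch.

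None of the 3 genes was called in a single nucleus, where calls were rare. The limma fit called 17 of 9654 genes in the ARC (0.176%), 1 of 9751 in the DMH (0.0103%), 35 of 9529 in the PVN (0.367%) and 2 of 9594 in the VMH (0.0208%). At an unadjusted p under 0.05, Ppargc1a passed in the ARC and DMH, Ucp2 in the PVN and VMH and Txnip in the DMH and VMH, beside 782, 646, 950 and 670 genes of the ARC, DMH, PVN and VMH. With voom on reads, Ucp2 in the PVN was the only one of these 12 results called. Fasted and fed values of the 3 genes overlapped in all 12, and they were apart for 2.13% of genes in the ARC, 0.400% in the DMH, 1.31% in the PVN and 0.50% in the VMH.

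**Figure D2:**
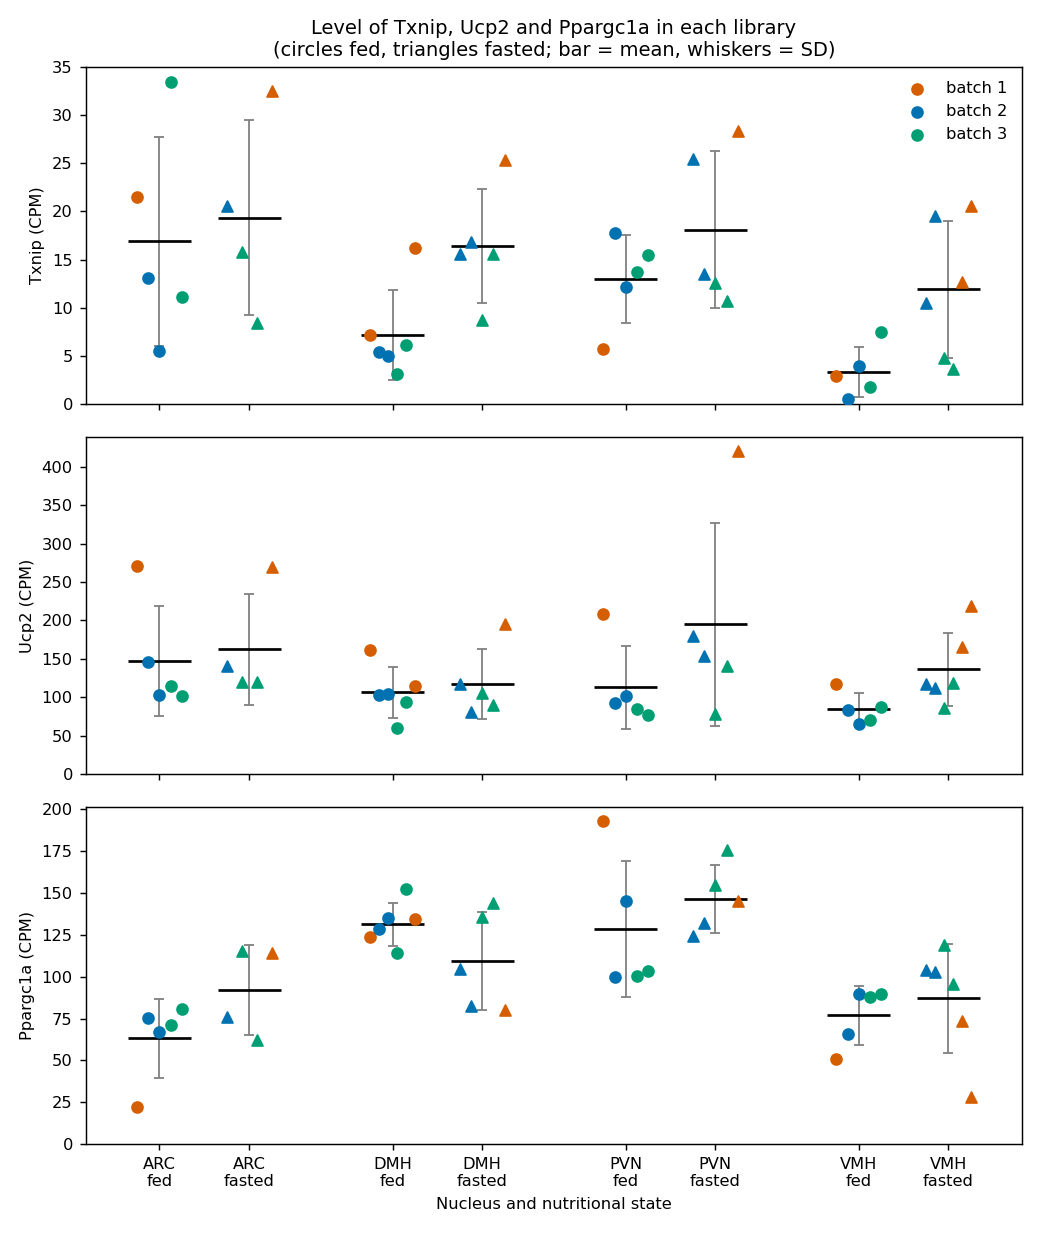
CPM of Txnip, Ucp2 and Ppargc1a (y axes) in each of the 41 libraries by nucleus and nutritional state (x axis). Circles are fed and triangles fasted mice, colours are the 3 batches, bars are means and whiskers SD. Txnip in fed VMH libraries lay between 0.518 and 7.44 CPM, and the highest Ucp2 value of each of the 8 groups was from batch 1.

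The fasting changes of the 3 genes were not shown to differ between nuclei. The interaction of state and nucleus gave an adjusted p of 0.941 for Txnip, 0.947 for Ucp2 and 0.929 for Ppargc1a in limma. It called 0 of 10121 genes (0%) with limma on log2 values and 0 with voom, with 522 genes at an unadjusted p under 0.05 and a smallest adjusted p of 0.240. The unequal sizes seen between nuclei, such as 1.67 for Txnip in the VMH and 0.18 in the ARC, are therefore given as values side by side.

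The third comparison took the mouse as the unit, with each mouse's nuclei combined after adjustment for nucleus, to ask whether fasting changed the genes over the 4 nuclei. Txnip and Ucp2 rose and Ppargc1a did not pass the test. On the log2 scale, Txnip was at 4.68 in Fast-85, 4.74 in Fast-86, 4.14 in Fast-100, 4.30 in Fast-101, 3.34 in Fast-305 and 3.17 in Fast-311. The fed mice were at 4.24 in Fed-92, 2.95 in Fed-111, 2.64 in Fed-125, 2.72 in Fed-127, 3.00 in Fed-308 and 3.31 in Fed-313. The fasted mice of batches 1 and 2 exceeded the fed mice of their batch, and in batch 3 the states overlapped.

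For Txnip the fasting change was 0.97 ± 0.24 on the log2 scale (SE, 6 and 6 mice, 1.96-fold), with a limma adjusted p of 0.0577. Within batches 1, 2 and 3 it was 1.12, 1.55 and 0.10. An exact permutation of the labels of mice within batches, 216 in all, gave a two-sided p of 0.0185 for the unweighted difference of 0.92. The call was lost without any of Fast-86, Fast-100, Fast-101, Fed-111, Fed-125 and Fed-127, with adjusted p of 0.166, 0.221, 0.187, 0.189, 0.156 and 0.141, and over all 12 mice left out the change was 0.76 to 1.16 (adjusted p 0.0269 to 0.221). It was also lost when each mouse had the same weight (0.265) and without batch in the model (0.591).

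Ucp2 was at 7.61 in Fast-85, 8.05 in Fast-86, 7.10 in Fast-100, 6.90 in Fast-101, 6.60 in Fast-305 and 6.86 in Fast-311. The fed mice were at 7.03 in Fed-92, 7.51 in Fed-111, 6.71 in Fed-125, 6.53 in Fed-127, 6.34 in Fed-308 and 6.50 in Fed-313. The 2 fasted mice exceeded the 2 fed mice of the same batch in each of the 3 batches, by 0.56, 0.38 and 0.31 on average. The share of all genes apart in this way was not computed, for Ucp2 or for the other 2 genes. Across batches the states overlapped, because the levels of the batches differed, with means of 7.55, 6.81 and 6.57.

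The Ucp2 change was 0.40 ± 0.09 (1.32-fold), with a limma adjusted p of 0.0272, and the exact permutation within batches gave a two-sided p of 0.00926, the smallest that 216 relabellings can give. The call was lost without Fast-86 (0.113), Fast-100 (0.135) or Fast-311 (0.112), with equal weights (0.170) and without batch in the model (0.909). Without each mouse in turn the change was 0.34 to 0.45 and the adjusted p 0.0157 to 0.135. Without Fast-85 and Fed-92, which had 1 library each, both Txnip (1.00 ± 0.24, adjusted p = 0.0555) and Ucp2 (0.39 ± 0.08, adjusted p = 0.0182) kept their calls. In the 12 combinations of nucleus and batch, fasted libraries were higher in 10 for Ucp2, 10 for Txnip and 8 for Ppargc1a. These combinations share mice, and the share of all genes with such counts was not computed, so the counts are a description only.

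Ppargc1a ranged from 6.30 to 7.03 in fasted mice (mean 6.64 ± 0.25, SD, n = 6) and from 6.19 to 6.79 in fed mice (6.57 ± 0.22, n = 6). The states overlapped in batches 1 and 2, and in batch 3 both fasted mice exceeded both fed mice by 0.30 on average. The change was 0.13 ± 0.09 (95% interval -0.06 to 0.32, limma adjusted p = 0.655), and the exact permutation gave a two-sided p of 0.528. Without each mouse in turn the change was 0.072 (without Fast-305) to 0.18, and it was 0.075 with equal weights. Over the 4 nuclei 129 of 10121 genes were called (1.27%), 64 higher and 65 lower in fasted mice, and 2 of the 3 genes, Txnip and Ucp2, were among the 64.

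**Figure D3:**
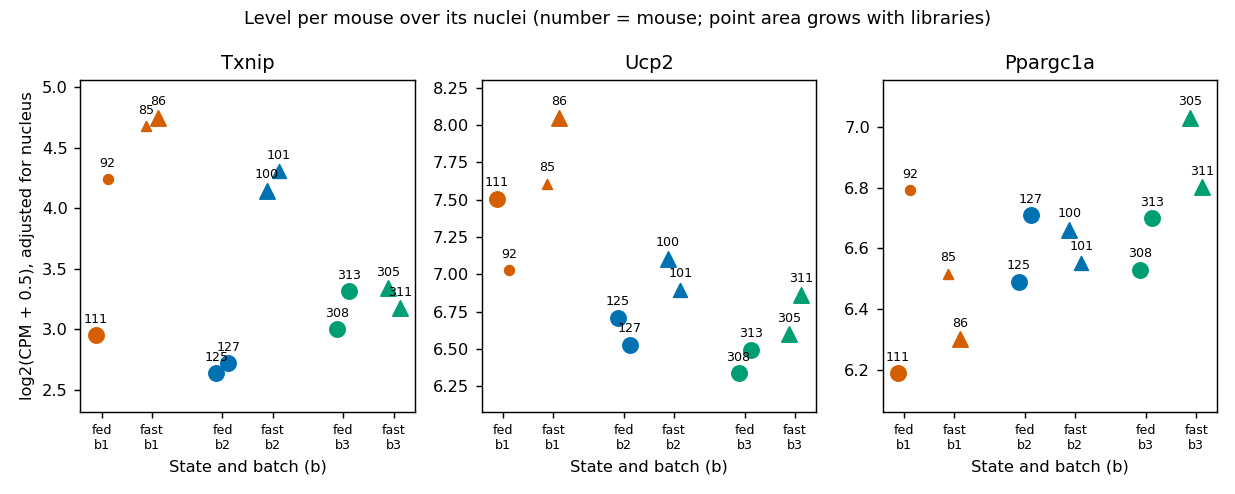
Level of the 3 genes in each mouse, as log2(CPM + 0.5) averaged over its nuclei after adjustment for nucleus (y axis), by state and batch (x axis). Circles are fed and triangles fasted mice, labelled by mouse number, with larger points for more libraries. Fasted mice lay above fed mice of their batch in all 3 batches for Ucp2, in batches 1 and 2 for Txnip and in batch 3 for Ppargc1a.

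**Figure D4:**
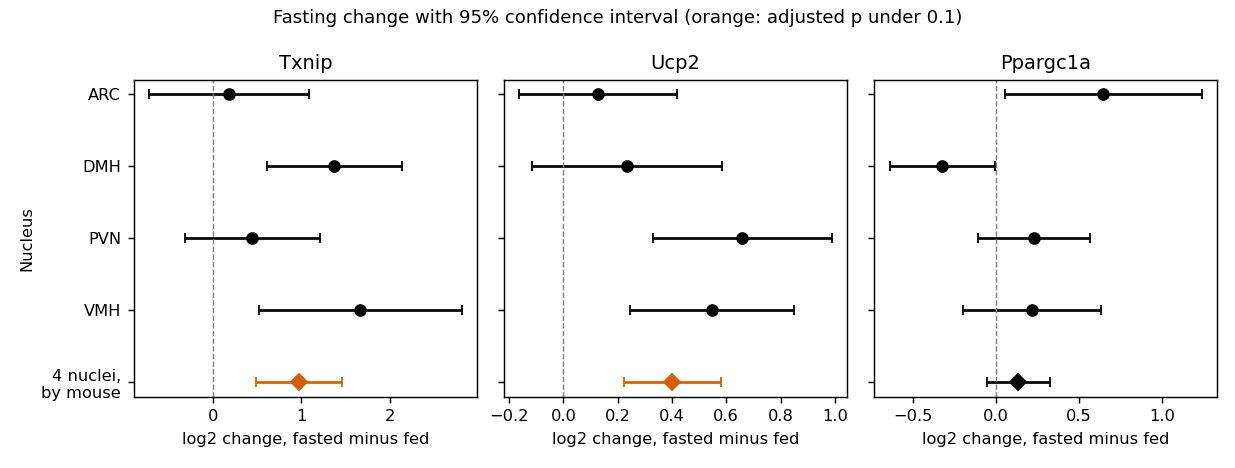
Fasting change on the log2 scale (x axis, fasted minus fed) of the 3 genes in each nucleus and, as diamonds, over the 4 nuclei with the mouse as the unit, from limma. Bars are 95% confidence intervals and orange marks an adjusted p under 0.1. Only the changes of 0.97 for Txnip and 0.40 for Ucp2 over the 4 nuclei are in orange.

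Markers of other cell types were examined because Ucp2 in batch 1 was high in both states. Over the 8 measured of 12 microglial markers, which include Cx3cr1 and Tmem119, the summed level was 143 to 220 CPM in fasted and 183 to 237 in fed libraries of batch 1. It was 94.9 to 171 and 97.1 to 202 in batch 2, and 110.3 to 148 and 102 to 187 in batch 3. By state, the sum was 94.9 to 219.9 CPM in fasted and 97.1 to 237 in fed libraries, none of the 8 was called in any fasting comparison, and none was at 0 throughout a group. In the ARC the sum was 141 ± 23.1 CPM in fasted and 194 ± 34.6 in fed libraries (SD, n = 4 and 5), beside a difference of 0.13 for Ucp2. Estimates there were below 0 for 7 of 8 markers. C1qc (-0.94 ± 0.42) and Ctss (-0.59 ± 0.20) were at an unadjusted p under 0.05 (limma, adjusted p = 0.579 and 0.458), beside 8.10% of all genes. In the PVN, where Ucp2 differed by 0.66, estimates were above 0 for 4 of 8 markers. C1qc was at 0.84 ± 0.36 there and Ctss at 0.41 ± 0.20 (adjusted p = 0.453 and 0.525). Over the 4 nuclei Cx3cr1 was at -0.39 ± 0.18 and Tmem119 at 0.14 ± 0.26 (adjusted p = 0.437 and 0.899). The part of microglia in the level of Ucp2 was not tested. No marker of endothelial cells, tanycytes and ependymal cells, astrocytes, oligodendrocytes, red blood cells or neurons was called by fasting either, although the endothelial and neuronal sums of the ARC were apart between the states, as given above. For the 3 measured astrocyte markers the median change was 0.32 over the 4 nuclei, against 0.01 for all genes, and 0.52 in the PVN. Over the 4 nuclei 2 of the 3 were above 0, and 1 was higher at an unadjusted p under 0.05 (limma), beside 10.98% of all genes. The part of astrocytes in the changes of Txnip and Ucp2 was not tested. Over the 4 nuclei the endothelial marker Flt1 was at -0.33 ± 0.11 and Cldn5 at 0.21 ± 0.21 (limma, adjusted p = 0.199 and 0.776). Flt1 was at -0.68 ± 0.21 in the DMH and 0.12 ± 0.15 in the PVN (adjusted p = 0.679 and 0.851).

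Genes that act with the 3 were then examined, of which only a part is analysed here. Of the thioredoxin system 4 of 18 genes were measured, with a median change over the 4 nuclei of 0.25 against 0.01 for all genes. Of these 4, 3 were above 0 there, and Glrx3 was at -0.25 ± 0.11 (limma, unadjusted p = 0.0359, adjusted p = 0.416). In that list 1 gene rose over the 4 nuclei (1.27% of all genes were called there) and in the PVN (0.367%), Srxn1, which encodes sulfiredoxin, the enzyme that restores overoxidised peroxiredoxins. Its change was 0.53 ± 0.10 over the 4 nuclei (limma, adjusted p = 0.0126) and 1.16 ± 0.25 in the PVN (adjusted p = 0.0637). The PVN call held without PVN-305 (0.0136) or PVN-308 (0.0604) and was lost without each of the other 8 libraries, with adjusted p up to 0.240. Without batch in the model both Srxn1 calls were lost, with adjusted p of 0.258 over the 4 nuclei and 0.445 in the PVN.

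Among the alpha-arrestins 3 of 6 were measured, Txnip included, and only Txnip was called. Its relatives Arrdc3 and Arrdc4, the latter also a glucose-responsive gene, were at -0.09 ± 0.15 and -0.29 ± 0.28 (limma, adjusted p = 0.881 and 0.761). The sign of Arrdc3 turned without Fast-86 or Fed-308, and Arrdc4 was at -0.15 without Fast-311 and -0.56 without Fast-86, and at -0.63 with equal weights for mice. By nucleus, Arrdc4 was at -1.07 ± 0.52 in the ARC, -1.05 ± 0.55 in the DMH, 0.85 ± 0.38 in the PVN and 0.17 ± 0.54 in the VMH. It was called in none of them (limma, adjusted p 0.474 to 0.980). Of the uncoupling carriers 2 of 6 were measured. Beside Ucp2, Slc25a14, a mitochondrial carrier of the same family, was at -0.30 ± 0.10 (adjusted p = 0.211). Without each mouse in turn Slc25a14 was at -0.35 to -0.19, and it was called with the mouse as a random block (adjusted p = 0.0664) and with mice of 3 or 4 libraries only (0.0828), but not under the other 6 alternatives.

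Of the PGC-1 family and its partners 6 of 18 were measured, with a median change of 0.05 over the 4 nuclei. None was called there by limma, where 1.27% of all genes were. At an unadjusted p under 0.05 was 1 of the 6, beside 10.98% of all genes. This was Foxo1, at 0.32 (limma, adjusted p = 0.171), which was called in 1 of 8 alternatives, with the mouse as a random block (0.0531). The relatives Ppargc1b and Pprc1 were at -0.06 ± 0.26 and -0.0014 ± 0.16 (limma, adjusted p = 0.957 and 0.998), whose signs turned under several alternatives. Foxo1, a transcription factor that insulin signalling restrains and that works with PGC-1alpha, was called in the ARC, where 0.176% of all genes were called. It was at 174 CPM in fasted and 101.4 in fed mice, a change of 0.76 ± 0.16 (limma, adjusted p = 0.0867). That call held without ARC-305 (0.0552) or ARC-313 (0.0679) and was lost without each of the other 7 libraries, with adjusted p up to 0.348. It was also lost under 4 of 7 other alternatives, with a pseudocount of 0.1 (0.128), without the filter (0.131), with a fit over all libraries (0.193) and without batch (0.314). The endothelial and neuronal marker sums that were apart between fasted and fed ARC libraries stand beside this change too.

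Of the genes of fatty acid oxidation and fuel choice 9 of 23 were measured, with a median change of 0.04, and 1 was called over the 4 nuclei (1.27% of all genes) and in the PVN (0.367%). Pdk2, a kinase that inhibits pyruvate dehydrogenase and so spares glucose carbon, rose by 0.49 ± 0.09 over the 4 nuclei (limma, adjusted p = 0.00938) and by 0.72 ± 0.15 in the PVN (adjusted p = 0.0637). The PVN call held without PVN-86 (0.0401) or PVN-111 (0.0427) and was lost without each of the other 8 libraries, with adjusted p up to 0.220. The call over the 4 nuclei was lost with equal weights for mice (0.368) and without batch in the model (0.752), as was the PVN call without batch (0.728).

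None of 7 measured of 12 genes of AMP-activated kinase and sirtuins was called over the 4 nuclei (median 0.08), and 2 were at an unadjusted p under 0.05, as were 1111 of all 10121 genes (10.98%). These were Camkk2, which encodes a kinase upstream of AMP-activated kinase, at -0.48 ± 0.22, and Prkab1, a subunit of that kinase, at 0.52 ± 0.25 (limma, adjusted p = 0.438 and 0.451). Without Fed-111 these were -0.27 and 0.25. None of 9 measured of 17 glucose response genes was called (median 0.12), with 1 at an unadjusted p under 0.05, a share near the 10.98% of all genes. The smallest p values there were of G6pc3, a glucose-6-phosphatase subunit, at 0.26 ± 0.09, and Abcc8, the sulfonylurea receptor, at 0.34 ± 0.24 (adjusted p = 0.247 and 0.660). Abcc8 was at 0.57 without Fed-111 and at 0.20 without Fed-308.

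Finally, genes whose level followed each of the 3 were listed, as a description over 41 libraries and 7639 genes with a mean of at least 5 CPM. Libraries share mice, nuclei and batches, so these correlations carry those differences. Txnip was most like Dchs1 (Pearson r = 0.69), Qsox1 (0.67) and Ganab (0.66), and after the mean of each nucleus and batch was removed, most like Cir1 (0.68), Dchs1 (0.66) and Sult1a1 (0.65). Ucp2 was most like Nrsn2 (0.81), Rps19 (0.78) and Pcsk1n (0.78), and after removal of those means most like Selenop, 4632404H12Rik and Sv2c (each 0.68). Ppargc1a was most like Cd47 (0.78), Tmem41b (0.68) and Rnf146 (0.68), and after removal most like Setd5 (0.67), Gm20388 (0.66) and Bend6 (0.66).

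Between the 3 genes themselves, Txnip and Ucp2 had an r of 0.53, and 0.49 after the means of nucleus and batch were removed. In the list of genes ordered by likeness to Txnip, Ucp2 stood at place 47, and at place 62 after removal. Ppargc1a was not close to either, with r of -0.03 to Txnip and -0.18 to Ucp2, and of 0.02 and 0.04 after removal.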

How the data were processed

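RNA of laser-captured nuclei was sequenced as single reads of 50 bases. Per the labels, the authors' processing used CASAVA 1.7, TopHat2 2.0.11, Cufflinks 2.2.1, edgeR and limma with GRCm38. The authors left out libraries that stood apart in overall profile and deposited CPM per Ensembl gene. How reads were assigned to genes is not given in the sources used here. Symbols and coordinates came from GENCODE M21. Of 43 samples, 2 had no matching column and are not analysed here, and 2 columns that matched no sample were not used.

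Tests used log2(CPM + 0.5), which understates changes of low genes, with limma 3.58.1 in R 4.3.3 (lmFit, eBayes with a trend), batch as a covariate and Benjamini-Hochberg adjusted p under 0.1. A gene was tested in a nucleus if it reached 1 CPM in a number of libraries equal to the smaller group. Over the 4 nuclei, mouse values adjusted for nucleus were weighted by their number of libraries. Between 96.6% and 97.8% of values were whole reads within 0.02 reads, so edgeR was not run, and voom on these reads was an alternative. The labels name each mouse, so nuclei of 1 mouse are paired by animal. After removal of group and batch means, libraries of the same mouse correlated at -0.12 to 0.02 (median -0.05). Libraries of other mice and other nuclei correlated at -0.17 to 0.13 (median 0.02). Libraries of 1 mouse always share a batch, and removal of batch means can lower their correlation, so these values cannot decide whether the mouse matters. The fits were tested on simulated data.

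The 3 genes, the lists and the tests were chosen with earlier results of these data known. Named beyond the 3 genes were list members past the threshold in any fasting comparison, the 2 with the smallest p where a list had none, close relatives, and the 3 genes most alike by r. Glrx3 and single marker genes of cell types and nuclei were named outside these rules.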

Additional observations from a re-analysis of the deposited data

Results flagged for a closer look

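In 3 of 24 groups examined, 1 library stood far from the others by Dixon's criterion, and chance gives about 1 in 20 groups. Ucp2 in the PVN of Fed-111 was 208.7 CPM, and the other 4 fed libraries were at 77.6 to 102 CPM. Ppargc1a in the ARC of the same mouse was 22.4 CPM, and the other 4 fed libraries were at 66.8 to 80.6 CPM. Ppargc1a in the VMH of Fast-86 was 28.2 CPM, and the other 5 fasted libraries were at 73.7 to 119 CPM. All 3 libraries are of batch 1.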

How the results depend on the processing

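Without batch in the model, 0 genes were called in the ARC, 0 in the DMH, 3 in the PVN, 1 in the VMH and 4 over the 4 nuclei, and the Txnip and Ucp2 changes over the 4 nuclei were 0.97 and 0.41 with the calls lost, as were the Ucp2 calls between nuclei, at 0.43 (ARC against DMH), 0.47 (ARC against VMH), -0.31 (DMH against PVN) and 0.35 (PVN against VMH). Equal weights for mice, an alternative chosen after seeing the data, gave 24 genes over the 4 nuclei, with 0.92 for Txnip and 0.42 for Ucp2, both not called. With the mouse as a random replicate block, 322 genes were called, and both genes kept their calls (adjusted p = 0.0194 and 0.00473). The mouse as a fixed replicate block changed no call of the 3 genes between nuclei. In the ARC 4 genes were called with a pseudocount of 0.1, 5 without the filter and 5 with a fit over all libraries, which gave 4 in the VMH. Voom on reads, also chosen after seeing the data, gave 55 in the PVN. Ucp2 in the PVN was called at 0.65 with a pseudocount of 2, 0.66 with a fit over all libraries and 0.75 with voom. The sign turned for Ppargc1b with equal weights (0.11) and for Pprc1 with a pseudocount of 0.1 (1.4e-05), without batch (0.0083), with the random block (0.026) and with mice of 3 or 4 libraries only (0.046). Leaving out 1 library at a time gave 3 to 23 called genes in the ARC, 1 to 2 in the DMH, 2 to 31 in the PVN and 1 to 5 in the VMH, with Txnip in the ARC at -0.28 to 0.63 and Ucp2 in the PVN at 0.57 to 0.83. Leaving out 1 mouse at a time gave 45 to 136 genes over the 4 nuclei, with Txnip at 0.76 to 1.16, Ucp2 at 0.34 to 0.45, Arrdc3 at -0.21 to 0.033, Ppargc1b at -0.22 to 0.19 and Pprc1 at -0.098 to 0.164, and 0 to 2 genes for the interaction. For levels it gave Txnip at -0.083 to 0.30 (ARC against PVN) and 0.69 to 1.05 (DMH against VMH), and Ucp2 at -0.016 to 0.093 (DMH against VMH). The cause of these shifts was not tested. Rescaling moved the median of all genes by less than 0.1 in each comparison. The edgeR test on counts was not run, since not all values were whole reads. Depth limits Txnip most, at 3 to 161 reads per library.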
